A study of Arabidopsis thaliana with 4 samples.

Results

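Shoots of seedlings labelled hfr1-4pil1-2 were compared with shoots of Col-0 seedlings after 96 h of low R:FR, in which far-red light outweighs red light as it does beside neighbouring leaves. The comparison took in every locus of the deposited table whose mean over its 4 columns was at least 10.8 normalized counts, which left 20116 of 33558 loci. Normalized counts are read counts divided by 1 size factor per library. All seedlings were Arabidopsis thaliana, germinated on agar without sucrose and grown at 22 °C for 3 d in unbroken white light (30 to 50 µE per m2 and second). Seedlings of both genotypes then either stayed in white light until they were 7 d old or spent the last 96 h in low R:FR, given by LEDs with red light at 13 µE, blue light at 1.23 µE and far-red light at 20 µE. Both genotypes received the same light. The 2 groups compared were Col-0 in low R:FR and hfr1-4pil1-2 in low R:FR, and the matching white light groups served to ask whether a difference was also there without low R:FR. The labels list 1 sample per group. The Col-0 columns are means, per the file headers, and each was resolved here into the 2 libraries behind it, while each hfr1-4pil1-2 column is 1 library. Nothing in the labels says that the libraries came from separate cultures, so p-values measure only the spread between these libraries, which may be technical. The spread of the lone mutant library was taken to equal that of Col-0.

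Both targeted genes encode proteins of the basic helix-loop-helix (bHLH) family. HFR1 is an atypical family member that pairs with PHYTOCHROME INTERACTING FACTORS (PIFs) and keeps them from binding DNA, and both genes are themselves quickly induced by shade. In shade, phytochrome B is inactivated and PIFs accumulate, which turn on auxin synthesis genes of the YUCCA (YUC) family, HD-Zip transcription factors and cell wall genes during stem and petiole elongation. Loss of HFR1 is known to exaggerate elongation in shade. The labels name the alleles but do not describe them.

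Reads per library were 13765680 and 11062781 for Col-0 in low R:FR and 7358583 for hfr1-4pil1-2 in low R:FR, so the mutant library was the shallower one and sets the precision. The Col-0 totals leave out 83 loci at or above 10196 normalized counts that could not be resolved into 2 libraries and held 18.0% of the Col-0 column. Of the 20116 loci, 20017 were tested with edgeR on recovered reads of all 6 libraries, and 99 could not be tested. Below, a gene is called higher or lower where edgeR's quasi-likelihood test gave a Benjamini-Hochberg adjusted p under 0.05 over all 20017 loci. Differences are log2(hfr1-4pil1-2 / Col-0) ± SE from that fit, and ratios are log2 of the column values after adding 10.8. After adding 10.8 to each, the 2 Col-0 libraries in low R:FR lay within 1.5-fold of each other for 99.4% of tested loci. The added value shrinks the spread at low levels.

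The targeted loci came first. HFR1 (AT1G02340, chromosome 1) had 2046 and 2359 normalized counts in Col-0 and 2112 in the mutant library, a difference of -0.06 ± 0.10 that was not called (edgeR, Benjamini-Hochberg adjusted p = 0.869). In white light HFR1 had 22.2 and 33.6 normalized counts in Col-0 and 189 in the mutant library, which was called higher. PIL1 (AT2G46970, chromosome 2) had 241 and 313 normalized counts in Col-0 and 1574 in the mutant library, 5.73-fold higher by a difference of 2.52 ± 0.13 (edgeR, Benjamini-Hochberg adjusted p = 4.54e-07). In white light PIL1 had 12.7 and 20.4 normalized counts in Col-0 and 220.3 in the mutant library. Neither transcript was thus lower in the libraries labelled hfr1-4pil1-2. Counts per locus cannot show a change within a transcript, so they do not check the genotype label, and each direction below is that of the library labelled hfr1-4pil1-2, called the mutant library.

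Over all loci the 2 genotypes were close in low R:FR. The median ratio was -0.0086, and the 5th and 95th percentiles of the ratios were -0.41 and 0.38. Of 20116 loci, 50 (0.249%) were at least 2-fold higher in the mutant library and 70 (0.348%) at least 2-fold lower. edgeR called 197 of 20017 tested loci higher (0.984%) and 280 lower (1.4%), with a median difference of 0.74 among the former and -0.64 among the latter. Calls were more frequent among abundant transcripts. Among the 5004 loci with the highest mean levels 90 loci were called higher and 172 lower, against 21 and 16 among the 5005 with the lowest, where the median absolute difference of called loci was 1.63 against 0.53. At an unadjusted p under 0.05, 1138 of the 20017 tested loci were higher and 1598 lower. Counts at an unadjusted p below are to be read against these. DESeq2 called fewer, 52 higher and 109 lower, all of them also called by edgeR. Some loci got no adjusted p from DESeq2, and here and below they count as not called by it. The mutant value lay above both Col-0 libraries at 36.8% of tested loci and below both at 40.1%, so that this alone says little about a single gene. In bulk RNA, fewer cells of a type and less RNA per cell cannot be told apart, here and in every comparison that follows.

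**Figure D1:**
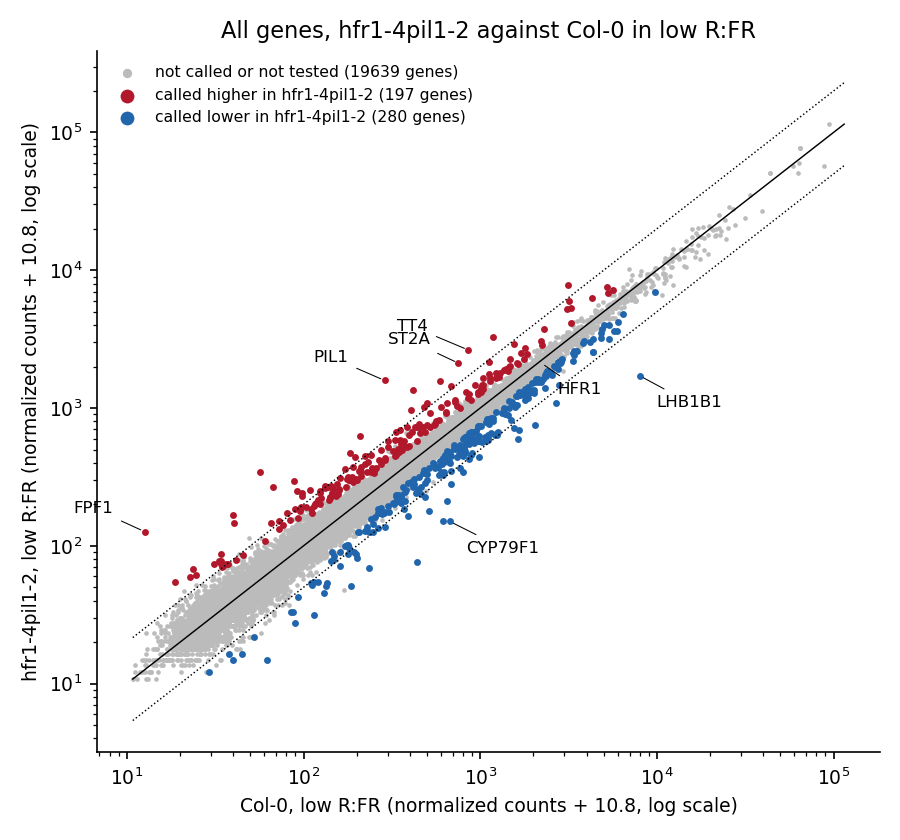
Each point is 1 of 20116 loci, with the mean of the Col-0 column on the x axis and the mutant library on the y axis, both in low R:FR, in normalized counts plus 10.8 on log axes. Red points (197) were called higher and blue points (280) called lower by edgeR, the solid line marks equality and the dotted lines 2-fold differences, and most called loci at high levels lie within the dotted lines.

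The ranking that follows took called genes with a symbol and a mean over the 4 columns of at least 54 normalized counts. The highest differences among them fell on a small set of unlike genes. After PIL1 came ORP4C (AT5G57240), an oxysterol-binding protein-related gene, with 47.9 and 64.2 normalized counts in Col-0 and 256 in the mutant library (2.21 ± 0.21). ACS8, an ACC synthase of ethylene synthesis, had 82.3 and 72.9 normalized counts in Col-0 and 285 in the mutant library, a 3.65-fold difference (1.87 ± 0.16). ORP4C and ACS8 reached the mean of 54 only through the mutant library in low R:FR. FAR1 (AT5G22500), a fatty acyl reductase and not the phytochrome signalling factor of that abbreviation, had 416 and 392 normalized counts in Col-0 and 1352 in the mutant library (3.34-fold, edgeR, Benjamini-Hochberg adjusted p = 4.54e-07). TT4, chalcone synthase at the entry to flavonoid synthesis, had 920.4 and 771 normalized counts in Col-0 and 2628 in the mutant library (3.1-fold). CYP707A2, an abscisic acid 8'-hydroxylase, rose from low levels of 23.9 and 16.5 to 63.6. For all 6 of these genes the mutant value lay above both Col-0 libraries, which lay close together by comparison. The genes were chosen for high called ratios in these same libraries, so this adds no support. Without the second Col-0 library of low R:FR CYP707A2 was not called.

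Several more genes stood out after their values were seen. FPF1 (AT5G24860, FLOWERING PROMOTING FACTOR 1) had 1.23 and 2.35 normalized counts in Col-0 and 116 in the mutant library, which are 2 and 3 reads against 84 reads. The ratio of its reads was 6.08 on the log2 scale, with a 95% interval of 4.80 to 7.74 that covers counting error only. In white light FPF1 had 0 and 1.2 against 0.77, so that the high level was seen in 1 library of 6. FPF1 reached the minimum mean for the comparison only through that library, the mutant library in low R:FR. Its selection thus rested on the same value as its ratio, and the interval does not allow for this. AT5G44440 had 46.0 and 46.2 normalized counts in Col-0 and 332 in the mutant library (2.84 ± 0.17). The iron superoxide dismutase gene FSD1 had 209 and 133 normalized counts in Col-0 and 463 in the mutant library (1.41 ± 0.24), and the vacuolar type cation exchanger gene CAX7 89.0 and 86.2 against 218 (1.31 ± 0.15), and both belonged to the 15 highest genes of the rule.

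At the lower end stood glucosinolate genes, an antenna protein gene and several loci that were low in both lights. LHB1B1 (LHCB1.4, AT2G34430), a chlorophyll a/b-binding protein of photosystem II, had 7596 and 8383 normalized counts in Col-0 and 1703 in the mutant library, 4.69-fold lower (-2.23 ± 0.12, edgeR, Benjamini-Hochberg adjusted p = 4.54e-07). AK3, an aspartate kinase gene, had 551 and 454 normalized counts in Col-0 and 167 in the mutant library (-1.59 ± 0.18). BCB, a blue copper-binding protein gene, had 133 and 118 against 42.9 (-1.55 ± 0.24), and CDEF1, a cutinase gene, 642 and 712 against 268 (-1.33 ± 0.12). In white light BCB and CDEF1 were higher in the mutant library, with differences of 0.81 and 0.38. TCH4, a xyloglucan endotransglucosylase gene that responds to touch, had 861 and 418 against 199, and its Col-0 libraries differed from each other by more than 2-fold.

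**Figure D2:**
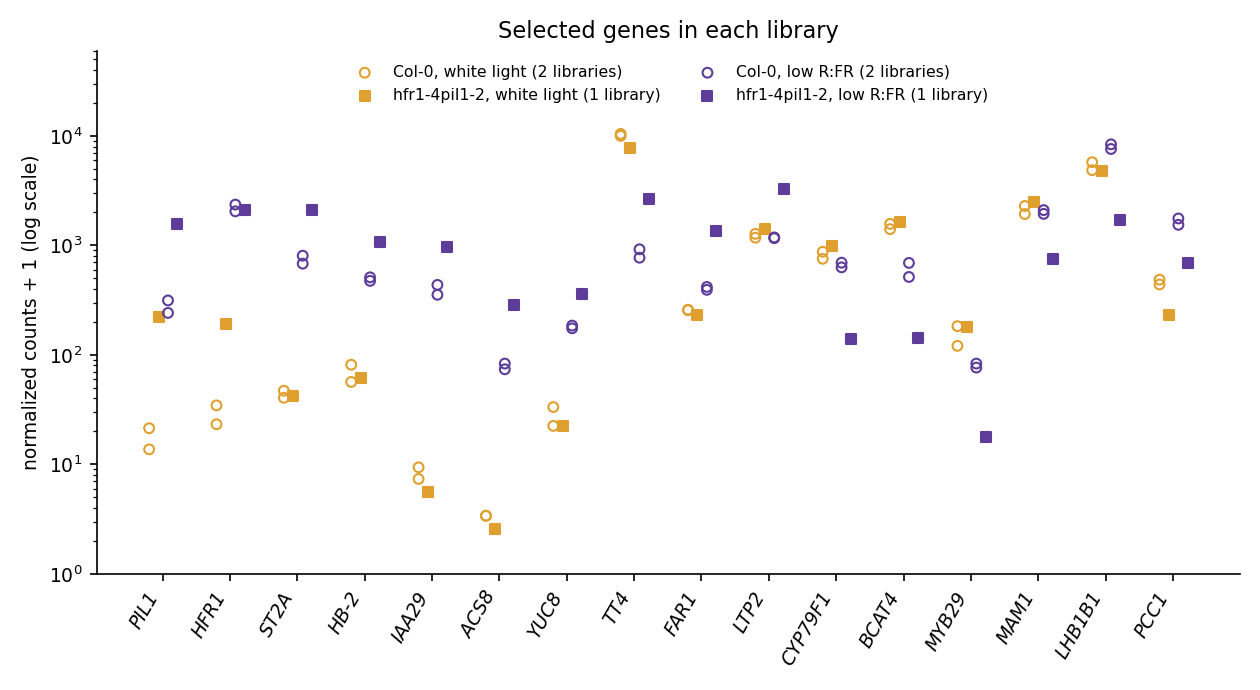
Normalized counts plus 1 on a log axis for 16 genes in each of the 6 libraries, with open circles for Col-0 and filled squares for hfr1-4pil1-2, orange for white light and purple for low R:FR. In low R:FR the squares of PIL1, ST2A, HB-2, IAA29, ACS8, YUC8, TT4, FAR1 and LTP2 stand above both circles and those of CYP79F1, BCAT4, MYB29, MAM1, LHB1B1 and PCC1 below both, while HFR1 stands between them.

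Several regulators that shade is known to induce were higher in the mutant library, among them HD-Zip II factors and growth-related bHLH genes. Of 21 listed shade regulators above the minimum, 8 were called higher, against 0.984% of all tested loci. A ratio above 0 was seen for 20 of the 21, and the median ratio was 0.50 against -0.0086 over all loci. edgeR called 0 lower, with 1 lower and 13 higher at an unadjusted p under 0.05. DESeq2 called 3 higher and 0 lower. In white light edgeR called 0 of them in either direction and their median ratio was -0.07. Of all tested loci 0.58% were called higher and 1.9% lower there. The difference between the lights was itself called for 6 of the 21, against 1.98% of all tested loci that were called higher and 1.81% called lower in that test.

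ST2A, a sulfotransferase that acts on hydroxyjasmonate and a known target of PIFs in shade, had 680.3 and 804 normalized counts in Col-0 and 2105 in the mutant library (2.84-fold, 1.51 ± 0.096, edgeR, Benjamini-Hochberg adjusted p = 2.94e-06). In white light ST2A had 46.1 and 39.6 in Col-0 and 40.8 in the mutant library. The genotypes thus overlapped in white light and stood apart in low R:FR, and the difference between the lights was called (1.60, edgeR, Benjamini-Hochberg adjusted p = 0.00689). HB-2 (ATHB2), the classical shade-induced HD-Zip II factor, had 473 and 510.0 normalized counts in Col-0 and 1079.5 in the mutant library (2.2-fold, 1.14 ± 0.11). Its relatives HB4 with 68.2 and 54.8 against 139.6 and HAT2 with 476 and 497 against 744 were higher too, by 1.17 ± 0.21 and 0.61 ± 0.096. The HD-Zip II genes HAT3 (0.37) and HAT1 (-0.30) were not called. Among bHLH genes, the PIF relative PIL2 (PIF6) with 136 and 107 against 261, the growth factor KDR (PRE6) with 78.0 and 92.4 against 173, BEE1 with 103 and 110.5 against 195 and the growth repressor IBH1 with 229 and 256 against 348 were higher. The transcriptional brakes PAR1 and PAR2, which act beside HFR1, differed by 0.08 and 0.17 and were not called. PRE5 (1.11), FHL (0.68) and PRE1 (0.67) had differences as large as those of some called genes and were not called.

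Among auxin genes the calls fell on the YUC family and on a few genes of the auxin response list. YUC8, YUC9 and YUC2, flavin monooxygenases of the last step of auxin synthesis, were the 3 called among 16 genes of auxin synthesis and transport. All 3 were higher, against 0.984% of all tested loci called higher. YUC8 had 174 and 184 normalized counts in Col-0 and 361 in the mutant library (1.01 ± 0.14), YUC9 55.9 and 53.3 against 137 (1.32 ± 0.20) and YUC2 52.8 and 79.1 against 129.9 (1.00 ± 0.24). DESeq2 called 0 of the 16, and without the first Col-0 library of low R:FR YUC2 was not called. The upstream aminotransferase TAA1 had a ratio of 0.07, and the carriers PIN3, PIN7 and AUX1 had ratios of 0.11, 0.26 and 0.16, without a call. Of the list, edgeR called 0 lower, with 1 lower and 4 higher at an unadjusted p under 0.05. The difference between the lights was called for YUC9 (1.83), and not for YUC8 (1.28, edgeR, Benjamini-Hochberg adjusted p = 0.0659) or YUC2.

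Of 31 genes of the auxin response list (Aux/IAA repressors, GH3 auxin-conjugating enzymes and ACC synthases), 5 were called higher, against 0.984% of all tested loci. Whether each member responds to auxin was not tested. IAA29, a repressor gene known as a shade target, had 353 and 435 normalized counts in Col-0 and 963 in the mutant library (2.46-fold, 1.30 ± 0.12) and was at 8.39 or less in every white light library. Besides ACS8, the auxin-conjugating enzyme gene WES1 (GH3.5) with 839 and 859 against 1254, IAA28 with 357 and 357 against 524 and IAA2 with 1156 and 1266 against 1637 were higher by less than 1.5-fold in the fit. IAA19 and GH3.3, common reporters of the auxin response, had ratios of 0.24 and 0.22 and were not called. The list's median ratio was 0.14, edgeR called 0 of it lower with 4 lower and 10 higher at an unadjusted p under 0.05, and DESeq2 called 1 higher. Without the first Col-0 library of low R:FR 3 were called higher, WES1 not among them. The SAUR genes, short-lived auxin-induced growth genes whose near-identical copies can share reads, had 1 call in each direction among 55. Over all tested loci, 0.984% were called higher and 1.4% lower. SAUR22 had 137 and 157 against 246 (0.75 ± 0.18) and SAUR78 796 and 714 against 358 (-1.08 ± 0.11), and the median ratio was 0.17. SAUR22 was not called without the first or without the second Col-0 library.

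**Figure D3:**
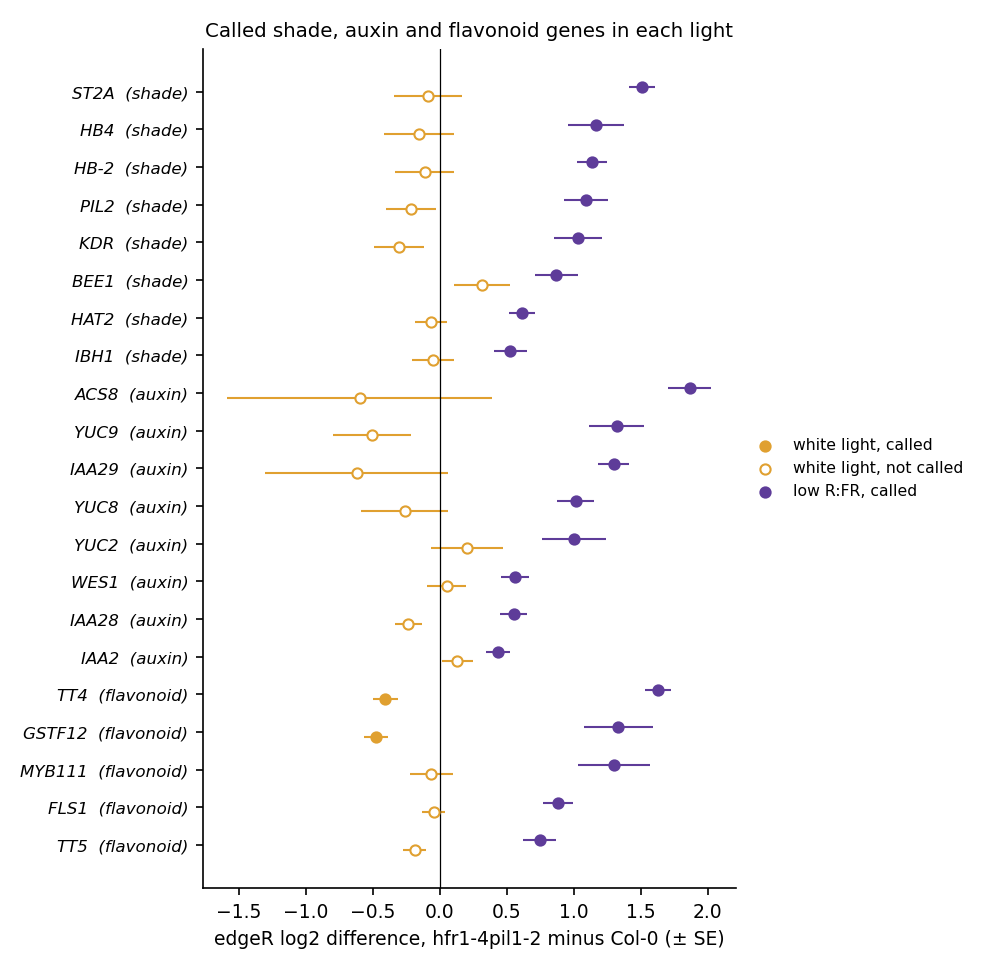
edgeR log2 differences with SE bars between hfr1-4pil1-2 and Col-0 in white light (orange) and low R:FR (purple) for the 21 called genes of the shade, auxin and flavonoid lists, with filled points for called differences. The genes shown are those called in low R:FR, all of them higher, and among the orange points TT4 and GSTF12 are called, both below 0.

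Promoters of PIL1 and of the 5 genes with the highest called ratios in the shade regulator, auxin response and SAUR lists were read from the reference, since all 6 were called higher and PIFs bind the G-box CACGTG and the related motif CACATG (PBE), or CATGTG on the other strand. The letters below are the 250 bases before each annotated gene start in RefSeq's TAIR10.1 assembly, 5' to 3' on the gene's strand in lower case, with any match of these motifs on either strand in capitals. The deposited table gives loci without coordinates and its build is named TAIR10, so the coordinates are those of TAIR10.1 alone.
PIL1, chr2:19297859-19298108, minus strand: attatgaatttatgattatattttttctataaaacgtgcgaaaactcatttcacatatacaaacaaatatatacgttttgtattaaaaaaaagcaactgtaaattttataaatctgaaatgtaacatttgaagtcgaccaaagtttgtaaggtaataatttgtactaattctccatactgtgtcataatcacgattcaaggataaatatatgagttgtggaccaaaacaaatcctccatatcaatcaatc
ACS8, chr4:17751829-17752078, plus strand: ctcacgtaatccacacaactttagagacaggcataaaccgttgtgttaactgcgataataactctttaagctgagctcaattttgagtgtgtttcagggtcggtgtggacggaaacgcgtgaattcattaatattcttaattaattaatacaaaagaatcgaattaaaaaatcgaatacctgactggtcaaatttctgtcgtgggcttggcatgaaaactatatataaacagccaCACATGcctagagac
ST2A, chr5:2176447-2176696, minus strand: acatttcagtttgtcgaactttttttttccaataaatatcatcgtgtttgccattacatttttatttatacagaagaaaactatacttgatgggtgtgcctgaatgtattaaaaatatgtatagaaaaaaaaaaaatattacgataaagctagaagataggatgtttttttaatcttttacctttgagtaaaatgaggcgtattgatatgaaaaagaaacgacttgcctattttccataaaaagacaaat
IAA29, chr4:15583082-15583331, plus strand: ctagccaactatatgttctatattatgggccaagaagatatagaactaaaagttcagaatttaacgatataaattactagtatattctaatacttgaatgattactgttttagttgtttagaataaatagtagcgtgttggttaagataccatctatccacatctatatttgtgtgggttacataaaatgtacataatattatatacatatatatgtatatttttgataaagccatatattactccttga
HB-2, chr4:9448864-9449113, plus strand: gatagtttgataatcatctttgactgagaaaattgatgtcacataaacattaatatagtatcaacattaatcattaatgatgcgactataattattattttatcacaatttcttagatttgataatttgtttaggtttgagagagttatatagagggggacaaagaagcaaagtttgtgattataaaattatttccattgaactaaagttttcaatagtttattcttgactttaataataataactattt
HB4, chr2:18519732-18519981, minus strand: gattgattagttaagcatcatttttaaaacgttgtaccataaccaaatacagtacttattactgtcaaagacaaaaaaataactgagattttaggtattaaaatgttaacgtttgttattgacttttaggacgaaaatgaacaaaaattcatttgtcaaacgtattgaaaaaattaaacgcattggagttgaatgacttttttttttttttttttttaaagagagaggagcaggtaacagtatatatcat
ACS8 held 1 match of CACATG that begins 15 bases before its start, and the other 5 windows held neither motif. Among all 19852 tested nuclear genes with a window, 7.41% held CACGTG and 11.2% held CACATG or CATGTG. Of the 196 genes called higher with a window, 19 held the former (9.69%) and 28 the latter (14.3%), and of the 280 called lower 20 held the former (7.14%) and 28 the latter. A match is a description of the letters, a missing match says only that they are not in this window, and the 2 motifs cannot match at the same position.

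Cell wall genes went in both directions. Of 29 XTH genes, which cut and rejoin xyloglucan, 2 were called higher and 5 lower, against 0.984% and 1.4% of all tested loci. XTH15 had 629 and 543 against 1009 (0.78 ± 0.13) and XTH31 238 and 238 against 326 (0.45 ± 0.11), while XTH9 had 2543 and 2075 against 1392 (-0.73 ± 0.11) and XTH6 1433 and 1455 against 987 (-0.55 ± 0.084). EXGT-A3, XTH16 and TCH4 were the other genes called lower, and DESeq2 called 1 higher and 2 lower. Without the first or without the second Col-0 library of low R:FR 1 was called higher. XTH9 and XTH16 were called higher in the mutant library in white light, so their direction turned with the light, and the difference between the lights was -1.18 and -0.87, both called. Of 17 expansin genes EXP3 (EXPA3) with 1135 and 1311 against 1785 was called higher. Among 22 gibberellin genes the small peptide genes GASA4 (0.37 ± 0.078) and GASA14 (0.44 ± 0.081) were higher, and GASA14 was also higher in white light (1.01). Without the second Col-0 library 1 of that list was called higher. CKX5, a cytokinin-degrading oxidase gene, had 346 and 339 against 574 (0.74 ± 0.11) and was the 1 gene called among 14 of the cytokinin list. edgeR called 0 of 18 brassinosteroid genes (4 higher and 0 lower at an unadjusted p under 0.05, DESeq2 0) and 0 of 25 cell division genes (0 higher and 1 lower, DESeq2 0).

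Most photoreceptor and light signalling genes were not called, and of all tested loci 0.984% were called higher. PHYA, the phytochrome that sustains signalling in far-red light, had 1814 and 1827 normalized counts in Col-0 and 2463 in the mutant library (0.44 ± 0.076, edgeR, Benjamini-Hochberg adjusted p = 0.00875), and PIF3 had 177 and 182 against 281 (0.65 ± 0.15). The other 14 genes of PIFs and photoreceptors were not called, among them PIF4 with a ratio of -0.30, PIF7 with -0.22 and PHYB with 0.25, and DESeq2 called 0 of the 16. PIF3 was not called without the first or without the second Col-0 library of low R:FR. In the list of COP1, SPA, HY5 and B-box genes, 21 of 23 ratios were above 0 with a median of 0.23, and the early light-induced genes ELIP1 and ELIP2 were called higher. ELIP1, which protects thylakoids in strong light, had 158 and 179 against 304 and ELIP2 78.0 and 61.1 against 162. In white light ELIP1 had 802 and 614 against 623 and ELIP2 285 and 258 against 272. Without the first Col-0 library 1 of that list was called, ELIP1 not among them, and without the second 4. HY5, the factor that drives many light-induced genes, had a ratio of 0.23 and was not called.

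The early flavonoid enzymes TT4, TT5 and FLS1 were higher in the mutant library in low R:FR, though lower than in white light. Of 24 genes of flavonoid and anthocyanin synthesis 5 were called higher, against 0.984% of all tested loci. A ratio above 0 was seen for 22 of the 24, and the median ratio was 0.46. edgeR called 0 lower, with 12 higher and 0 lower at an unadjusted p under 0.05, and DESeq2 called 4 higher. Beside TT4 these were the next early enzymes TT5 (chalcone isomerase) with 179 and 162 against 288 and FLS1 (flavonol synthase) with 282 and 247 against 489, the flavonol regulator MYB111 with 25.2 and 22.7 against 59.4 and the anthocyanin transport protein gene GSTF12 with 24.6 and 23.5 against 60.8. The levels of TT5, FLS1, MYB111 and GSTF12 in the mutant library in low R:FR lay below those of either genotype in white light. MYB111 had 125 and 121 in Col-0 and 118 in the mutant library in white light. GSTF12 had 1131 and 1016 against 775 there. In white light 0 of the 24 genes were called higher and 6 lower, against 0.58% of tested loci called higher and 1.9% called lower, and the median ratio was -0.34. The median ratios of the 2 lights thus had opposite signs, and the difference between the lights was called higher for 8 genes. It was called higher for 1.98% of all tested loci. For TT4 it was 2.04 (edgeR, Benjamini-Hochberg adjusted p = 2.02e-05). MYB111 was not called in low R:FR without the first or without the second Col-0 library. The anthocyanin regulator MYB75 (PAP1, AT1G56650) was low in low R:FR, with column values of 10.8 for Col-0 and 29.0 for the mutant library. Its difference there was 1.43 ± 0.41 and was not called. In white light it had 234 and 197 against 165, and the difference between the lights was 1.83, which was called.

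Antenna protein and chlorophyll synthesis genes were called lower in several cases, and most other photosynthesis genes had ratios below 0. Of 48 genes of light-harvesting and photosystem subunits 43 had a ratio below 0 and the median ratio was -0.32, but 25 of them could not be tested because their Col-0 values were too high to resolve. Of the 23 tested, 6 were called lower and 1 higher, against 1.4% and 0.984% of all tested loci. LHB1B1 had the lowest ratio, and its neighbouring near-copy LHB1B2 (AT2G34420), among those not tested, had column values of 63082 and 50776. Close copies among antenna genes can share reads, so LHB1B1 is uncertain as a single gene. LHCB2.1, LHCB2.2 and LHCB2.3, which belong to the same trimeric antenna, were lower, with differences of -0.49 ± 0.092, -0.72 ± 0.089 and -0.66 ± 0.089. All 3 were also lower in white light, with differences of -0.65, -0.66 and -0.78. The exception was LHCB4.3, a variant of a minor antenna protein, with 101 and 109.7 against 191 in low R:FR and 1516 and 1450.3 against 1300.0 in white light. Of 17 chlorophyll synthesis genes 3 were called lower, PORB (protochlorophyllide reductase, -0.57 ± 0.078) and the magnesium chelatase subunits CHLI1 (-0.41 ± 0.087) and ALB1 (CHLD, -0.39 ± 0.084), and 13 had a ratio below 0. Without the first Col-0 library of low R:FR edgeR called 8 of the light-harvesting and 6 of the chlorophyll synthesis genes lower, and without the second 4 and 1. The columns' totals were 10433887 normalized counts for Col-0 and 10171547 for hfr1-4pil1-2, and rescaling both to 1 total moved the median ratio of all loci to 0.025.

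Among the 34 lists, aliphatic glucosinolate synthesis had the largest share of called members. These genes make sulfur-rich defence compounds from chain-elongated methionine. Of 20 genes above the minimum 13 were called lower, against 1.4% of all tested loci, and all 20 ratios were below 0 with a median of -0.82. In all 20 the mutant value lay below both Col-0 libraries. edgeR called 0 higher, with 0 higher and 19 lower at an unadjusted p under 0.05, and DESeq2 called 8 lower. In white light edgeR called 0 of the 20, and their median ratio was 0.13. Over all tested loci 0.58% were called higher and 1.9% lower in white light. The difference between the lights was called lower for 12 of the 20, against 1.81% of all tested loci.

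The steps of the pathway differed in size of difference. Among regulators, MYB29 had 75.5 and 82.3 normalized counts in Col-0 and 16.6 in the mutant library (-2.24 ± 0.42, edgeR, Benjamini-Hochberg adjusted p = 0.0133), while its more abundant partner MYB28 differed by -0.22 ± 0.091 and was not called. MYB76 (-1.62) had few reads and was not called. In methionine chain elongation, the aminotransferase gene BCAT4 had 691 and 514 normalized counts in Col-0 and 141 in the mutant library (4.29-fold lower, edgeR, Benjamini-Hochberg adjusted p = 0.000108). MAM1, the condensing synthase, had 2099.9 and 1941 normalized counts in Col-0 and 746 in the mutant library (2.71-fold lower), and the isomerase subunit IPMI2, the dehydrogenase IMD1 and the transporter BAT5 were lower, with differences of -0.86 ± 0.14, -0.88 ± 0.11 and -0.72 ± 0.17. In formation of the core structure, CYP79F1 had 694 and 629 normalized counts in Col-0 and 139.6 in the mutant library, 4.75-fold lower (-2.25 ± 0.15, edgeR, Benjamini-Hochberg adjusted p = 3.55e-06). Its tandem neighbour CYP79F2 had 138 and 131 against 80.2 (-0.75 ± 0.17), and reads of these close copies may be shared. CYP83A1 (-0.87 ± 0.10), GSTF11 (-1.32 ± 0.26) and GSTU20 (-0.94 ± 0.12) followed, whereas the last core steps UGT74C1 (-0.37), SOT18 (-0.46) and SOT17 (-0.21) were not called. Of the side-chain oxygenases, FMO GS-OX1 (-1.31 ± 0.20) and FMO GS-OX3 (-0.86 ± 0.18) were lower.

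In white light the genotypes lay close together. CYP79F1 had 874 and 754 against 996 there, BCAT4 1572 and 1406 against 1629 and MYB29 182 and 119.9 against 177, so the mutant library was above both Col-0 libraries for CYP79F1 and BCAT4 and between them for MYB29. The difference between the lights was -2.53 for CYP79F1 (edgeR, Benjamini-Hochberg adjusted p = 2.05e-05) and -2.43 for MYB29. Outside the list, and named after their values were seen, the side-chain enzyme gene AOP2 (-1.30 ± 0.22) and the myrosinase gene TGG2, whose product breaks glucosinolates down (-1.13 ± 0.13), were lower too. TGG2 had 1582 and 1497 normalized counts in Col-0 and 702 in the mutant library. Of 14 indole glucosinolate genes, which start from tryptophan, 2 were called lower, CYP81F2 with 103 and 103 against 44.2 and IGMT1 with 554 and 797 against 336, and the median ratio was -0.08. Over all tested loci, 1.4% were called lower. With all libraries 2 of the 14 were higher and 4 lower at an unadjusted p under 0.05. edgeR called 1 of them, IGMT1, without the first Col-0 library of low R:FR, and 0 without the second.

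**Figure D4:**
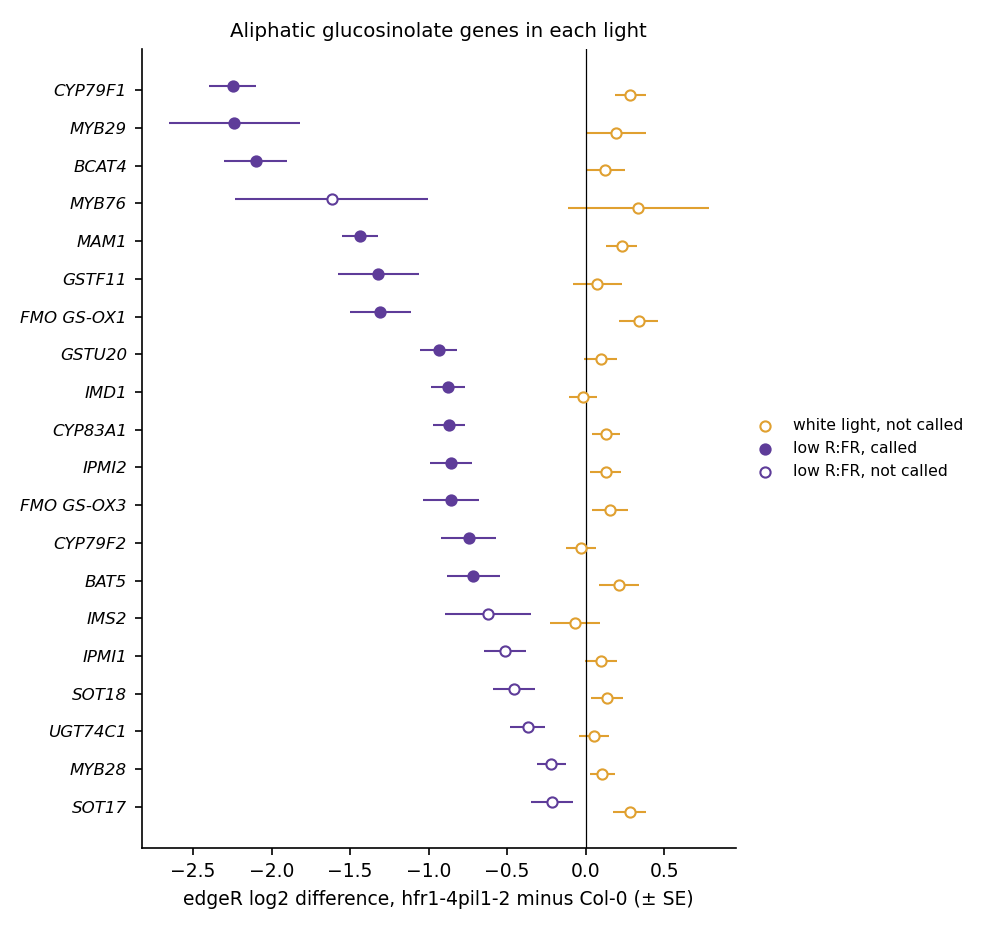
edgeR log2 differences with SE bars between hfr1-4pil1-2 and Col-0 for the 20 aliphatic glucosinolate genes in low R:FR (purple) and white light (orange), with filled points for called differences. All 20 purple points lie below 0 and 13 are filled, while the orange points lie between -0.07 and 0.34 and none is filled.

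Other defence lists held fewer calls. Of 13 salicylic acid and immunity genes 2 were called lower, the calmodulin-binding regulator CBP60G with 98.2 and 103 against 41.5 and WRKY70 with 173 and 163 against 89.8, against 1.4% of all tested loci, and the median ratio was -0.44. At an unadjusted p under 0.05, 0 of the 13 were higher and 5 lower. edgeR called 0 of them without the first Col-0 library of low R:FR, and 1, WRKY70, without the second. EDS16 (ICS1), the synthesis enzyme, had a ratio of -0.52 without a call. PCC1, a pathogen-responsive and clock-regulated gene outside the list, had 1541 and 1761 normalized counts in Col-0 and 684 in the mutant library (-1.27 ± 0.11) and was lower in white light as well (-1.01). Of 25 jasmonate genes VSP2 was called lower (-0.81 ± 0.15), in both lights (-1.20 in white light). The median of the jasmonate list was -0.17, and DESeq2 called 0 genes of the indole glucosinolate, salicylic acid and jasmonate lists.

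Cuticle and surface lipid genes were divided. LTP2, a lipid transfer protein gene of the shoot surface, had 1182 and 1162 normalized counts in Col-0 and 3276 in the mutant library (2.79-fold, 1.48 ± 0.078, edgeR, Benjamini-Hochberg adjusted p = 4.54e-07), and LTP3 had 104 and 58.0 against 239 (1.52 ± 0.23). LTP4, the close copy next to LTP3, had a ratio of 1.21 without a call, and reads of such copies may be shared. Against these, CER1 of alkane synthesis (-0.61 ± 0.12) and the very-long-chain elongases KCS1 (-0.52 ± 0.093), KCS9 (-0.38 ± 0.081) and KCS20 (-0.36 ± 0.079) were lower, so that the wax list of 23 genes had 2 calls higher and 4 lower. The shares over all tested loci were 0.984% higher and 1.4% lower. Without the second Col-0 library of low R:FR 1 of the 23 was called lower, and DESeq2 called 1 in each direction. LTP2 had 1175 and 1274 against 1399 in white light, and its difference between the lights was 1.29, which was called.

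Single genes of other programmes were called, and over all tested loci 0.984% were called higher and 1.4% lower. FLP1, a mobile flowering-promoting protein gene related to FPF1, had 294 and 282 normalized counts in Col-0 and 563 in the mutant library (0.96 ± 0.11) and was the 1 gene called of 21 flowering genes. FT, the florigen gene, had a ratio of -0.15. In the clock list ELF4 was higher (0.52 ± 0.095) and TCP11 (AT5G08330) lower (-0.49 ± 0.11). Of 29 cold, drought and abscisic acid genes RD20 (0.73 ± 0.14) and CYP707A2 were higher and RD22 (-0.47 ± 0.081) was lower. The sugar-starvation gene DIN10 had 5051 and 5686 against 3175 (-0.76 ± 0.10) and TPS8 1065 and 1089.6 against 782 (-0.46 ± 0.11). DIN10 was higher in the mutant library in white light (0.48). NIA1 (nitrate reductase) and ASN2 (asparagine synthetase) were lower, with differences of -0.43 ± 0.097 and -0.42 ± 0.087. The iron transporter gene IRT1 was lower (-0.73 ± 0.17), and was higher in white light (0.56). edgeR called 0 of 14 phosphate starvation genes (0 higher and 2 lower at an unadjusted p under 0.05), 0 of 13 hypoxia genes (1 higher, 0 lower) and 0 of 6 heat shock genes (0 and 0). Without the first Col-0 library of low R:FR ELF4, TCP11, RD20 and IRT1 were not called, and without the second TCP11, CYP707A2, NIA1, ASN2 and IRT1. DESeq2 called 0 in all 3 lists, and also 0 in the clock, gibberellin, cytokinin, iron and nitrogen lists.

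**Figure D5:**
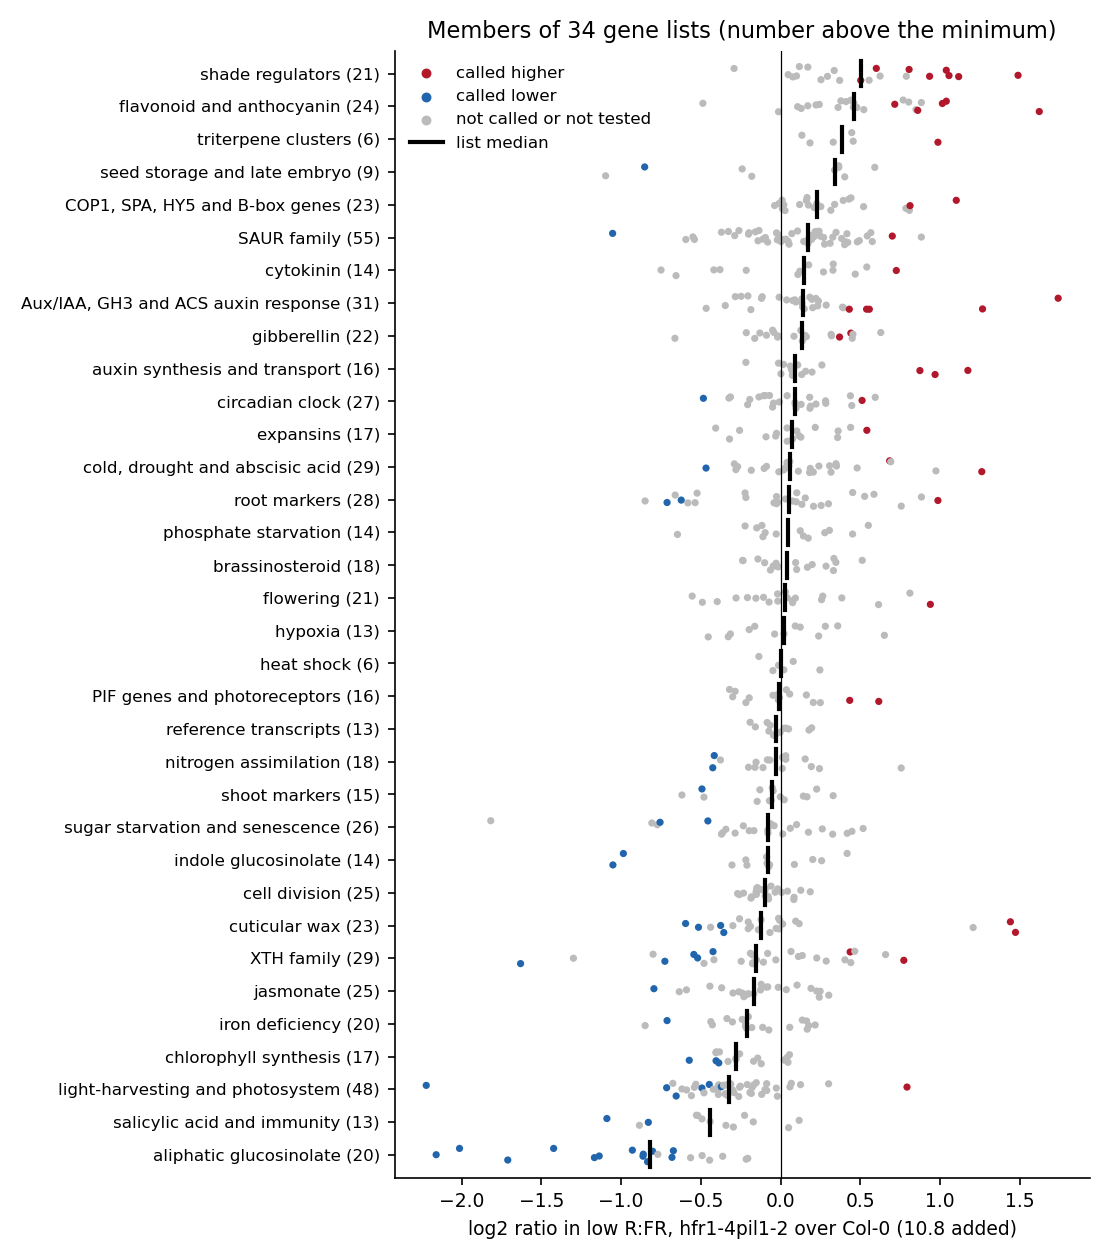
Ratios in low R:FR, log2(hfr1-4pil1-2 / Col-0) with 10.8 added, for the members of 34 gene lists, with the number above the minimum in brackets, red for called higher, blue for called lower and a bar at each list's median. The lists are ordered by median, from -0.82 for aliphatic glucosinolate genes to 0.50 for shade regulators.

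Markers of other tissues and reference transcripts were read beside these groups. The 28 root markers summed to 7762 normalized counts in Col-0 and 7562 in the mutant library in low R:FR, with 1 called higher and 2 lower. The shares over all tested loci were 0.984% higher and 1.4% lower. None of the 28 was at 0 in either genotype. Without the first Col-0 library of low R:FR 1 was called in each direction, and without the second 0 of them (5 higher and 8 lower at an unadjusted p under 0.05 with all libraries, DESeq2 0). In white light their sums were 7831 and 6246, with 1 called higher and 8 lower, against 0.58% and 1.9% of all tested loci there. The part of root tissue in the differences between the lights was not tested. MRN1 (marneral synthase), a triterpene gene of the root list, had 127 and 116 against 252 in low R:FR (1.04 ± 0.24) and 218 and 354 against 74.7 in white light. Its call was lost without the first or without the second Col-0 library of low R:FR. The 16 shoot markers summed to 370512 and 337769, which is the direction of the antenna genes among them. M17, a late embryo gene, had 398 and 448 against 229 in low R:FR and 206 and 151 against 9.24 in white light, lower in both. It was the 1 gene called of 9 seed storage and late embryo genes above the minimum, of which 5 had a ratio above 0, and the median ratio of the 9 was 0.34. edgeR called 0 of the 9 higher, with 1 higher and 1 lower at an unadjusted p under 0.05, and DESeq2 called 0. Of 13 reference transcripts edgeR called 0 of the 10 tested (0 higher and 1 lower at an unadjusted p under 0.05, DESeq2 0), and their median ratio was -0.03.

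The same genotypes were compared in white light. The white light comparison used other libraries, and it called 116 loci higher (0.58% of all tested loci) and 380 lower (1.9%). Of the 197 loci called higher in low R:FR, 3 (1.52%; 2.59% of the white light list) were also called higher in white light and 16 (8.12%; 4.21% of the white light list) were called lower there. Of the 280 called lower, 25 (8.93%; 6.58% of the white light list) were also called lower in white light and 16 (5.71%; 13.8% of the white light list) were called higher there. The median white light difference of the loci called in low R:FR was -0.15 for those called higher and 0.06 for those called lower. The difference between the lights was called with the same sign for 124 of the 197 and for 158 of the 280. Over all tested loci it was called higher for 1.98% and lower for 1.81%. These loci were, though, chosen for their difference in low R:FR, which the test of the difference also uses. Loci lower in both lights were AT3G19010, with 423 and 438 against 65.0 in low R:FR and 515 and 493 against 25.4 in white light, AT5G35935 with 161 and 186 against 40.1 and 149 and 174 against 41.6, and the retroelement SADHU3-2 with 98.2 and 109 against 20.7 and 67.5 and 58.7 against 9.24. MRD1 had 33.8 and 34.5 against 5.53 and 24.6 and 31.2 against 0. MRD1 was not called in low R:FR without the first or without the second Col-0 library. These 4 were singled out after their values were seen.

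Loci beside the targeted genes were read separately. Of the 5 loci on each side of HFR1 and of PIL1, 1 was at least 2-fold apart, AT1G02350, the next locus after HFR1, with 65.7 and 91.7 normalized counts in Col-0 and 174 in the mutant library (1.16 ± 0.22, edgeR, Benjamini-Hochberg adjusted p = 0.0156). It was not called without the first Col-0 library of low R:FR. ASY3, the next locus after PIL1, was also called higher, with 95.8 and 112 against 184 (0.83 ± 0.16). Over the genome 6 pairs of adjacent loci were called higher together and 8 lower together. The former included PIL1 with ASY3, TT5 with ABCG19, ACS8 with SQE3 and ORP4C with AT5G57250. The latter included the close copies CYP79F2 and CYP79F1. Whether these numbers exceed those of unlinked neighbours was not tested.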

How the data were processed

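RNA of seedling shoots was sequenced, and the authors deposited normalized counts, a signal that is read counts divided by 1 size factor per library, in 1 column per group, the Col-0 columns being means per the file headers. Bowtie and TAIR10 are named per the submitters' processing notes, and the counting tool is not given in the sources used here. All mutant values (100%) were whole multiples of 1 step within 0.01 reads, and each Col-0 mean was resolved into 2 libraries the same way. Size factors in low R:FR were 1.63 and 1.28 (Col-0) and 0.723 (hfr1-4pil1-2). edgeR 4.0.16 (R 4.3.3) was run on the recovered reads of 6 libraries with the authors' factors and no further scaling, with 2 residual degrees of freedom, a biological coefficient of variation of 0.0525 and an adjusted p under 0.05. The steps were tested on simulated data. DESeq2 1.42.0 was an alternative. Intervals at 95% cover counting error only.

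The members and gene lists were chosen with earlier results of these data known. Named genes were HFR1, PIL1, the 15 highest and 15 lowest called ratios among genes that have a symbol and average 54 normalized counts or more, up to 4 members per list, and genes said to be chosen later; other list members are given as examples. Of 33558 loci, 32825 were in RefSeq's gene table, which gave the symbols. Python 3 with pandas computed ratios and lists. Promoters were read from RefSeq's TAIR10.1. Alternatives were other pseudocounts, scalings, filters, DESeq2 and leaving out a library.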

Additional observations from a re-analysis of the deposited data

Results flagged for a closer look

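The genotype difference in low R:FR minus that in white light was called by edgeR (Benjamini-Hochberg adjusted p under 0.05) for HFR1 and for 46 of the named genes that were called in low R:FR. Over all tested loci this difference was called higher for 1.98% and lower for 1.81%. The values in brackets are that difference on the log2 scale, and genes chosen for a difference in low R:FR lean toward a difference between the lights. HFR1 (-2.87) and PIL1 (-1.28) were below 0. For PIL1 the mutant library was above Col-0 by more in white light than in low R:FR. For HFR1 it was above Col-0 in white light and between the 2 Col-0 libraries in low R:FR. The aliphatic glucosinolate genes were CYP79F1 (-2.53), MYB29 (-2.43), BCAT4 (-2.23), MAM1 (-1.67), FMO GS-OX1 (-1.65) and GSTF11 (-1.39), and the related genes AOP2 (-1.60), TGG2 (-1.35) and AK3 (-1.69) had the same sign. Among photosynthesis genes LHB1B1 (-2.06), PORB (-0.86) and CHLI1 (-0.55) were below 0. Other genes below 0 were BCB (-2.36), CDEF1 (-1.71), EXL5 (-1.51), IRT1 (-1.28), SAUR78 (-1.24), DIN10 (-1.24) and AGP17 (-1.22).

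Above 0 stood the shade, auxin and phytochrome genes ST2A (1.60), HB-2 (1.25), HB4 (1.32), PIL2 (1.31), YUC9 (1.83), IAA28 (0.79) and PHYA (0.47). The flavonoid genes were TT4 (2.04), GSTF12 (1.81) and MYB111 (1.36), and the light-stress and antenna genes ELIP1 (1.06), ELIP2 (1.21) and LHCB4.3 (1.05). Also above 0 were the lipid transfer protein genes LTP2 (1.29) and LTP3 (1.58) and the fatty acyl reductase gene FAR1 (1.88). The values of AT3G19010 (1.58), M17 (3.41) and MRN1 (2.94) were above 0, with the mutant library further below Col-0 in white light than in low R:FR, or below it there alone. The remaining genes were XTH15 (1.07), CKX5 (1.21), RD20 (1.28), CYP707A2 (1.68), CAX7 (1.85), FSD1 (1.94) and NEET (1.99).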

How the results depend on the processing

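No paired analysis was possible because neither the labels nor the columns carry replicate numbers. Ratios of 2-fold or more, 50 higher and 70 lower, became 130 and 183 with a 10 times smaller pseudocount and 22 and 19 with one 5 times larger, since the pseudocount shrinks ratios of low levels. Leaving out a Col-0 library gave 54 to 78 higher and 69 to 78 lower. edgeR's 197 higher and 280 lower became 52 and 109 with DESeq2, 321 and 452 with the low R:FR libraries only, and 471 and 677 with no filter, and the cause was not tested. Leaving out 1 library gave 146 to 328 higher and 187 to 466 lower; the lowest counts came without the first (higher) or second (lower) Col-0 library of low R:FR. The set without the white light mutant library was chosen after seeing the data. In the reported fit and all 9 alternatives 50 genes were called higher and 93 lower. Of 76 named genes called, DESeq2 lost 42 and leaving out the first or second Col-0 library of low R:FR lost 17 or 16, and the other alternatives lost 0. Some of the genes lost with DESeq2 had no adjusted p there and counted as not called. Among them were MYB29, BCB and GSTF11, with DESeq2 differences of -2.25, -1.55 and -1.32. None of the 76 changed direction in any of these alternatives. With 1 mutant library of 7358583 reads, small differences at low levels were not detectable.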
